A study of Rattus norvegicus with 29 samples.

Results

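The genes described here encode lysosomal membrane proteins (Lamp1, Lamp2 and Cd63), lysosomal proteases of the cathepsin family (Ctsb, Ctsd and Ctsl) and progranulin (Grn). Every probe set of the Affymetrix rat genome U34 A array whose only gene symbol in the platform annotation is one of these 7 genes was taken, which gave 15 of 8740 probe sets and 7 of 4736 named genes. Signals came from 29 arrays of hippocampal CA1 tissue, 1 array per sample. The male Fischer rats behind them were 4 months old on 9 arrays (young), 14 months on 10 (mid-aged) and 24 months on 10 (aged). All groups had been trained on the same pair of tasks, labelled SWM and OMT, and tissue was collected 24 hours after a 7-day sequence of training and testing, so no untrained rats stand behind any value. That each array holds RNA of a single rat is not said in the labels and was assumed. The 7 genes were chosen on knowledge of the age differences of these same signals, among which those of Lamp2, Ctsl and Grn had been named. Their differences between ages are therefore given as a description, with values, standard errors (SE), calls and counts but without a p-value for any of them.

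Lysosomes are acidic organelles that degrade proteins, lipids and carbohydrates delivered by endocytosis and autophagy. LAMP1 and LAMP2 are heavily glycosylated proteins of their limiting membrane, CD63 is a tetraspanin of late endosomes and lysosomes, and the cathepsins are the main proteases of their lumen. Progranulin is a secreted growth factor-like glycoprotein that is also carried to lysosomes and cleaved there into granulins, and in brain it is made by microglia and neurons. In brain, lysosomal genes are active in neurons and glia alike, and microglia, the resident phagocytes, are rich in them. In RNA of whole CA1 tissue, fewer cells of a type and less RNA per cell cannot be told apart.

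Many lysosomal genes carry the E-box letters CACGTG near their start, as the core of the CLEAR element to which the transcription factor TFEB binds. The 250 bases before the annotated start were read for 6 of the 7 genes from RefSeq's rat assembly GRCr8, and CACGTG, which reads the same on both strands, was searched in them. Lamp1 held it 5 times, Ctsd 2 times and Cd63 1 time, and Lamp2, Ctsl and Grn held 0 copies. Among 33469 RefSeq rat promoters of the same length, 5.59% held at least 1 copy, 0.43% held 2 or more and 0.0209% held 4 or more. The promoters of the genes with the letters are printed first, and that of Lamp2, the gene with the largest age differences here, last. Each is written 5′ to 3′ in the direction of its gene, and capitals mark CACGTG.
Lamp1 (chr16:83075064-83075313, minus strand): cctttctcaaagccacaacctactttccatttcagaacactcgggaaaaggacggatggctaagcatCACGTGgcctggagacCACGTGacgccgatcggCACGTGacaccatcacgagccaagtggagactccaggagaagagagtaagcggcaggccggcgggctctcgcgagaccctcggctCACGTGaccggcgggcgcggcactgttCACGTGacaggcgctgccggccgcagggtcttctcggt
Ctsd (chr1:206968822-206969071, minus strand): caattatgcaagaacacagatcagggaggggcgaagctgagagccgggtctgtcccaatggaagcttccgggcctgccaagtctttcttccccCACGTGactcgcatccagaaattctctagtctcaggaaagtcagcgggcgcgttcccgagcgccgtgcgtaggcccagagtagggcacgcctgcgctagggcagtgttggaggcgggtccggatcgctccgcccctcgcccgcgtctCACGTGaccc
Cd63 (chr7:1921894-1922143, plus strand): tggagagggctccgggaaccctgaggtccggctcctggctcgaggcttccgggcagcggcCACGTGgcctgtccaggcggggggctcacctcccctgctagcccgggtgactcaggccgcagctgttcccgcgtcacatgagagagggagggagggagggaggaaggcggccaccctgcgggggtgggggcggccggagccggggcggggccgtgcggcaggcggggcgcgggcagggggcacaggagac
Lamp2 (chrX:122087674-122087923, minus strand): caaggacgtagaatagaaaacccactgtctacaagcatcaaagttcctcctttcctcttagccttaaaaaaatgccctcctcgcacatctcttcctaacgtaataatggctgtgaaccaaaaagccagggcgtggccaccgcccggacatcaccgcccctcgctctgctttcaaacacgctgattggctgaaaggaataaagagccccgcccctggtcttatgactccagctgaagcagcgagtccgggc

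In Lamp1 the copies began 183, 167, 150, 65 and 38 bases before the start, in Ctsd 157 and 10 bases before it, and in Cd63 190 bases before it. A match is a description of these letters and not of a site in use, and its absence from a window says only that the letters are not in that window.

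Of the 15 probe sets, 12 were called present on all 29 arrays and were tested with the other probe sets called present on at least 9 arrays, 3861 in all. The other 3, all of Lamp1, were called present on 0 of 29 arrays and were not tested. Across the arrays 35.6% to 46.5% of probe sets were called present. The array columns carry 2 styles of name whose meaning the labels do not give; the longer style is found on 4 of the young, 6 of the mid-aged and all 10 of the aged arrays. The age differences of several genes changed with the style, as given beside some of them.

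Lamp2 rose with age on 2 of its 3 probe sets, and none of the other 6 genes passed the threshold in any pair of ages. Both Lamp2 probe sets lay higher in aged than in young rats, at folds of 1.56 and 1.53, and one of them was already as high in mid-aged rats. In aged against young rats 2 of the 12 probe sets passed the threshold (limma, Benjamini-Hochberg adjusted over all 3861 probe sets, 0.05), both higher, where 1.66% of all tested probe sets passed in either direction and 1.19% passed as higher. In mid-aged against young rats 1 of 12 passed, where 0.414% of all did. In aged against mid-aged rats 0 of 12 passed, where 0.0518% of all did. At an unadjusted p under 0.05 stood 8 of the 12 for aged against young, 3 for mid-aged against young and 4 for aged against mid-aged rats, where 548, 431 and 200 of all 3861 did; since the genes were chosen on these differences, nothing is read from these counts. In no pair of ages did all arrays of the older group lie above all arrays of the younger one for any of the 12, a separation that 0.337% of all probe sets showed for aged against young, 0.0259% for mid-aged against young and 0.00% for aged against mid-aged rats. The array-by-array plot shows each of these 12 probe sets.

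**Figure D1:**
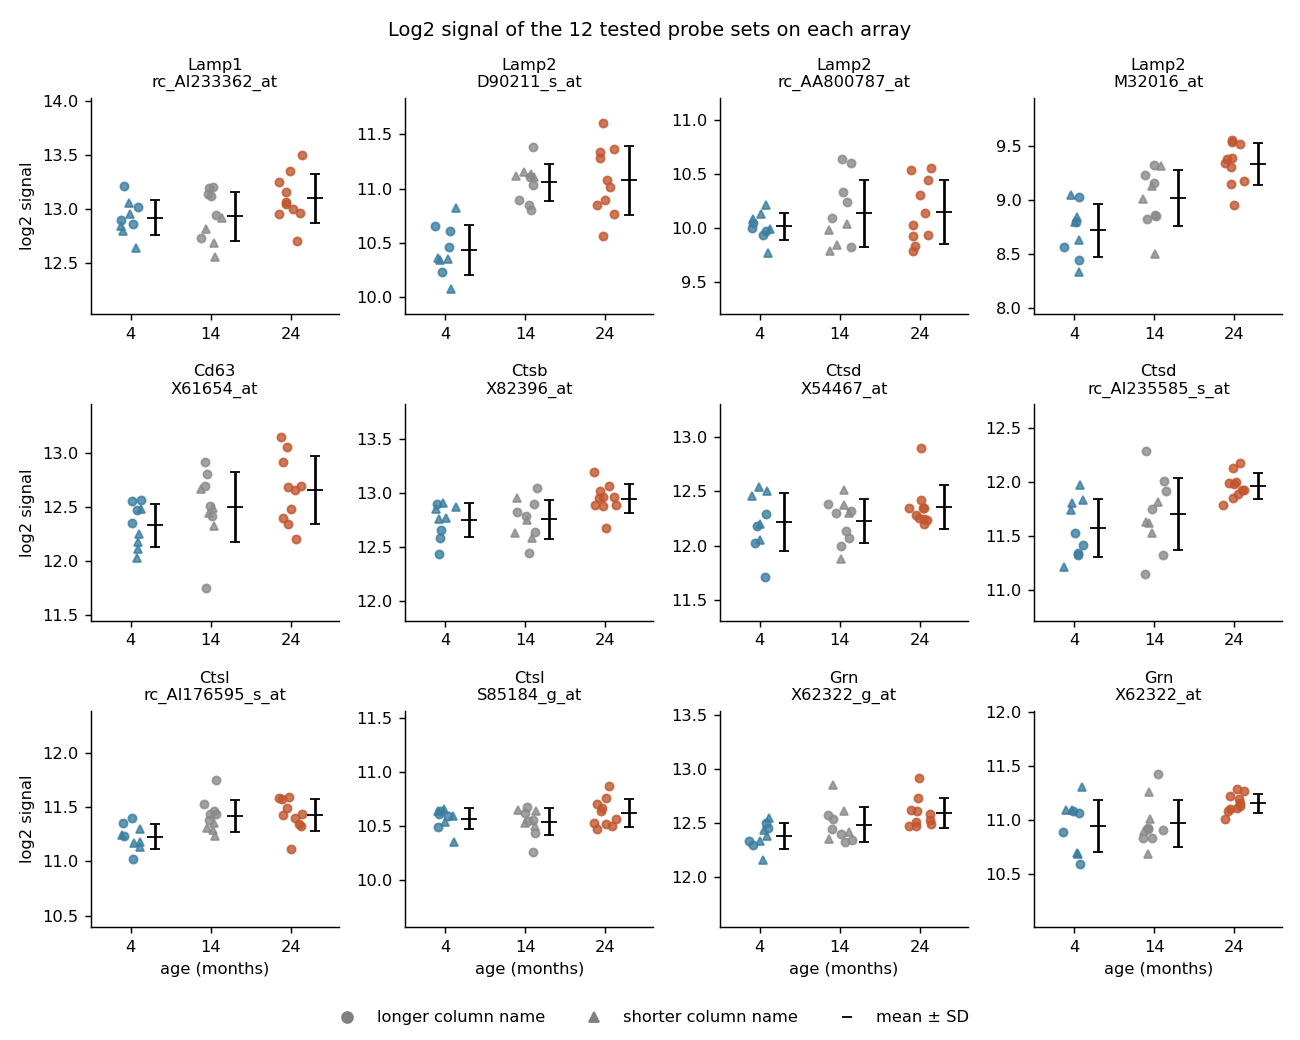
Log2 signal (vertical axis) of the 12 tested probe sets on each array, by age in months (horizontal axis), with the mean ± SD of each age beside the points; the vertical axes differ in position and share the same span, and the marker shape gives the style of the array's column name. Lamp2 D90211_s_at lies above every young array on 9 of 10 arrays at 14 months and 8 of 10 at 24 months, and Lamp2 M32016_at has a higher mean at each later age, while the 3 ages of the other 10 probe sets overlap broadly.

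LAMP2 lines the lysosome and, in one of its splice forms, takes substrates into it by chaperone-mediated autophagy. The 3 Lamp2 probe sets were read apart, because they gave different courses. The files describe M32016_at as the 3′ end of a lysosomal glycoprotein mRNA, and their older annotation put it and rc_AA800787_at in different UniGene clusters, so they need not read the same transcript; the suffix _s_at of D90211_s_at is Affymetrix's mark for probes shared by more than one transcript.

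On D90211_s_at the log2 signal had its lowest, median and highest values at 10.07, 10.36 and 10.82 in young, 10.80, 11.11 and 11.39 in mid-aged and 10.56, 11.05 and 11.60 in aged rats. Of the mid-aged arrays, 9 of 10 lay above every young array, and 8 of 10 aged arrays did. The means were 10.43 ± 0.23 (SD, n = 9) in young, 11.06 ± 0.17 (n = 10) in mid-aged and 11.08 ± 0.32 (n = 10) in aged rats. The step thus lay between 4 and 14 months, with a log2 change of 0.63 (SE 0.11) for mid-aged against young rats, a fold of 1.55. From there the means did not differ beyond their spread, with 0.02 (SE 0.11) for aged against mid-aged rats. Aged against young rats gave 0.64 (SE 0.11), a fold of 1.56. In the authors' deposited series table of intensities this probe set did not pass in either pair, with log2 changes of 0.26 for aged and 0.21 for mid-aged against young rats. Among arrays of the longer name style alone it did not pass either, at 0.59 and 0.53, while the shorter style, which holds no aged array, gave 0.74 for mid-aged against young rats and passed.

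D90211_s_at also moved with the share of probe sets called present on an array. Of the 7 genes, each read by its brightest tested probe set, it was the one that did so past the threshold. With the mean of each age taken off, r was 0.59 over 29 arrays (Spearman rho 0.61; permutation within ages, two-sided, adjusted p = 0.0066 over 49 relations). Without the 2 arrays farthest from the median r was 0.50, and it was 0.62 within the longer and 0.39 within the shorter style. Ctsb came near it, at r = 0.51 (permutation adjusted p = 0.0697), with 0.67 within the longer and 0.155 within the shorter style. M32016_at and rc_AA800787_at were not among these relations. The median share called present was 39.3% in young, 41.3% in mid-aged and 42.0% in aged rats. That share as a covariate was chosen after seeing the data. With it the log2 change of D90211_s_at was 0.53 for aged against young rats, still past the threshold. For mid-aged against young rats it was 0.49, no longer past the threshold.

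M32016_at followed a stepwise course. Its log2 signal had its lowest, median and highest values at 8.33, 8.80 and 9.05 in young, 8.50, 9.07 and 9.32 in mid-aged and 8.95, 9.36 and 9.56 in aged rats. All but 1 of the 10 aged arrays lay above every young array, and 6 of 10 lay above every mid-aged one. The means were 8.72 ± 0.25 (SD, n = 9), 9.02 ± 0.26 (n = 10) and 9.33 ± 0.19 (n = 10) at 4, 14 and 24 months. For aged against young rats it changed by 0.61 (SE 0.11), a fold of 1.53, and by 0.30 (SE 0.11) and 0.31 (SE 0.11) for the steps from 4 to 14 and from 14 to 24 months, neither of which passed. The call for aged against young rats held in the deposited series table (0.51) and within the longer name style (0.62). This probe set was the dimmest of the 12 tested. Its young signals ran from 323 to 531, where the 75th percentile of values called absent was 378.5. With that value as the floor the aged against young change was 0.57 and still passed.

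The remaining Lamp2 probe set, rc_AA800787_at, did not pass. Its medians were 10.00 in young, 10.07 in mid-aged and 10.08 in aged rats, within ranges that ran from 9.77 to 10.21 in young, 9.78 to 10.64 in mid-aged and 9.78 to 10.55 in aged rats. The ages overlapped over nearly their whole range, and the spread was wider at the 2 older ages, with SDs of 0.31 in mid-aged and 0.29 in aged rats against 0.13 in young rats. For aged against young rats it changed by 0.13 (SE 0.12). Within ages no correlation between the 3 Lamp2 probe sets passed, with r of -0.14 for D90211_s_at and M32016_at, -0.10 for D90211_s_at and rc_AA800787_at and 0.27 for M32016_at and rc_AA800787_at (adjusted p = 0.679 for each, permutation within ages, over 6 pairs of probe sets of 1 gene). In the same order r was -0.35, -0.17 and 0.21 within the longer name style, over 20 arrays, and 0.35, 0.77 and 0.54 within the shorter one, over 9 arrays; the difference between the styles was not tested.

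Lamp1, which encodes the other abundant glycoprotein of the lysosomal membrane, did not pass in any pair of ages. On rc_AI233362_at its lowest, median and highest log2 signals were 12.64, 12.90 and 13.21 in young, 12.55, 12.93 and 13.20 in mid-aged and 12.70, 13.05 and 13.49 in aged rats. The aged arrays reached higher, and 3 of 10 lay above every young array, but the groups overlapped. The log2 change was 0.18 (SE 0.10) for aged against young, 0.01 (SE 0.10) for mid-aged against young and 0.17 (SE 0.10) for aged against mid-aged rats. The 3 Lamp1 probe sets called present nowhere had most signals at or below the floor of 160.8 used for log2 values; rc_AA850756_at, the brightest of them, had median signals of 126 in young, 148 in mid-aged and 180 in aged rats.

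Cd63 had the largest difference among the membrane proteins after Lamp2 and did not pass. The log2 signals of X61654_at had their lowest, median and highest values at 12.03, 12.36 and 12.57 in young, 11.75, 12.50 and 12.92 in mid-aged and 12.21, 12.67 and 13.15 in aged rats. The medians ran upward with age, 6 of 10 aged arrays lay above every young one, and the lowest value of all stood on a mid-aged array. The means were 12.33 ± 0.20 (SD, n = 9), 12.50 ± 0.32 (n = 10) and 12.66 ± 0.31 (n = 10) at 4, 14 and 24 months. Aged against young rats gave a log2 change of 0.33 (SE 0.13), a fold of 1.25, and there were 0.17 (SE 0.13) and 0.16 (SE 0.13) for the steps from 4 to 14 and from 14 to 24 months. Within the longer name style it was 0.17 for aged against young rats.

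None of the proteases passed, and 4 of their 5 probe sets had log2 changes between 0.14 and 0.39 for aged against young rats. Ctsb encodes a cysteine protease with both endo- and exopeptidase activity. The lowest, median and highest log2 signals of X82396_at were 12.44, 12.77 and 12.91 in young, 12.45, 12.77 and 13.05 in mid-aged and 12.68, 12.96 and 13.20 in aged rats. Young and mid-aged arrays covered almost the same range, and 6 of 10 aged arrays lay above every young one. The log2 change was 0.20 (SE 0.08) for aged against young, 0.01 (SE 0.08) for mid-aged against young and 0.19 (SE 0.08) for aged against mid-aged rats. Over the alternatives of processing, the aged against young change ran from 0.04 to 0.30 and never passed.

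Ctsd encodes the main aspartic protease of the lysosome, and its 2 probe sets differed in size of change. On rc_AI235585_s_at the lowest, median and highest log2 signals were 11.21, 11.52 and 11.97 in young, 11.15, 11.69 and 12.28 in mid-aged and 11.78, 11.95 and 12.17 in aged rats. The aged arrays sat in a narrow band that began in the upper part of the young range and reached above it, with 5 of 10 above every young array. Their SD was 0.12 against 0.27 in young rats. Aged against young rats gave a log2 change of 0.39 (SE 0.12), a fold of 1.31, against 0.26 (SE 0.11) for aged against mid-aged rats. It was the member nearest to the threshold without passing it: with the replicate number as a block, with only the 2 ages in the fit and without young replicate 7 it passed, at 0.41, 0.39 and 0.44. Within the longer name style it changed by 0.56 for aged against young rats and did not pass. For mid-aged against young rats it changed by 0.34 within the longer and by -0.06 within the shorter style. On X54467_at the medians were 12.20 in young, 12.30 in mid-aged and 12.31 in aged rats, and the log2 change for aged against young rats was 0.14 (SE 0.11). A single aged array, replicate 3, stood at 12.90, above the next aged array at 12.42, and it was the only one of 10 above every young array. In the deposited series table X54467_at changed by 0.46 for aged against young rats and did not pass.

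Ctsl encodes a cysteine endopeptidase, and its 2 probe sets also differed. On rc_AI176595_s_at the lowest, median and highest log2 signals were 11.03, 11.24 and 11.40 in young, 11.24, 11.41 and 11.76 in mid-aged and 11.11, 11.44 and 11.59 in aged rats. As for Lamp2 D90211_s_at, the mid-aged and aged arrays lay at like levels above most young ones, with 5 and 7 of 10 above every young array. The log2 change was 0.20 (SE 0.07) for aged against young, 0.19 (SE 0.07) for mid-aged against young and 0.01 (SE 0.07) for aged against mid-aged rats. With array weights the aged against young change passed, at 0.20. With name style as a term it was 0.13, and within the longer style 0.18, and it passed in neither. On S85184_g_at the log2 changes were 0.05 (SE 0.07), -0.03 (SE 0.07) and 0.08 (SE 0.07), with medians of 10.59 in young, 10.55 in mid-aged and 10.60 in aged rats, so the ages could not be told apart on it.

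Grn did not pass on either probe set, and both gave the same change for aged against young rats. On X62322_g_at the lowest, median and highest log2 signals were 12.15, 12.38 and 12.55 in young, 12.32, 12.43 and 12.85 in mid-aged and 12.47, 12.55 and 12.92 in aged rats. All 10 aged arrays lay above the young median and 5 above every young array. The log2 change was 0.21 (SE 0.08) for aged against young, 0.10 (SE 0.08) for mid-aged against young and 0.11 (SE 0.07) for aged against mid-aged rats. On X62322_at it was 0.21 (SE 0.09), 0.02 (SE 0.09) and 0.19 (SE 0.09). There 0 of 10 aged arrays lay above every young one, since the young arrays ran from 10.60 to 11.31 and the aged ones from 11.02 to 11.29.

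**Figure D2:**
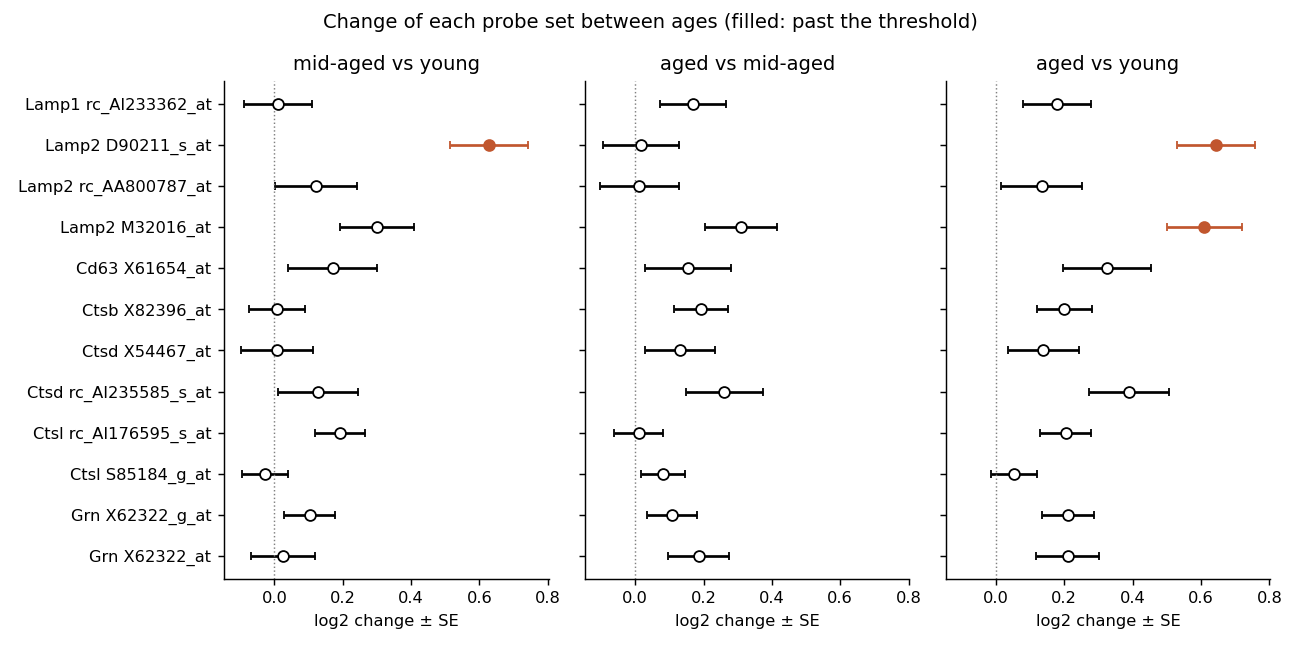
Log2 change ± SE (horizontal axis) of each of the 12 tested probe sets (rows) for mid-aged against young, aged against mid-aged and aged against young rats; filled points passed the threshold. The 2 filled points of Lamp2 lie near 0.6 for aged against young rats, and most of the open points of that panel lie between 0.1 and 0.4.

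The 12 probe sets leaned the same way beyond the 2 that passed. For aged against young rats the log2 change was above 0 in 12 of 12 probe sets, where 46.4% of all tested probe sets lay above 0, and the median was 0.21, where that of all was -0.02. For mid-aged against young rats it was above 0 in 11 of 12 (45.4% of all), with a median of 0.11. For aged against mid-aged rats it was above 0 in 12 of 12 (49.8% of all), with a median of 0.14. Since the genes were chosen with the age differences known, these counts support nothing about lysosomal genes at large.

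The other lysosomal genes on the array gave 1 call for aged against young rats and a smaller median change than the 7 genes. Of 108 further genes listed, 37 were on the array under a single name and 28 were tested through 39 probe sets. For aged against young rats 1 of these 39 passed, that of Ctss, where 1.66% of all tested probe sets passed. At an unadjusted p under 0.05 (limma) stood 8 of the 39, where 548 of all 3861 did. Above 0 lay 23 of 39 (46.4% of all tested probe sets), with a median of 0.07 (that of all was -0.02). For mid-aged against young rats 16 of 39 lay above 0 (45.4% of all), with a median of -0.02. For aged against mid-aged rats 28 of 39 did (49.8% of all), with a median of 0.06. For mid-aged against young rats and for aged against mid-aged rats 0 of 39 passed (limma), where 0.414% and 0.0518% of all did. At an unadjusted p under 0.05 stood 5 and 4 of them, where 431 and 200 of all 3861 did.

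Ctss, a cathepsin made mainly by microglia and other antigen-presenting cells, rose in aged rats. Its means were 14.20 ± 0.09 (SD, n = 9) in young, 14.38 ± 0.19 (n = 10) in mid-aged and 14.59 ± 0.14 (n = 10) in aged rats. All 10 aged arrays, from 14.43 upward, lay above the highest young array at 14.35, and the log2 change was 0.39 (SE 0.08, limma adjusted p = 0.00235). Within the longer name style the change was 0.39 and its adjusted p was 0.17. The other cathepsins tested gave no call: Ctsh, an aminopeptidase, changed by 0.13 (limma adjusted p = 0.605) and Ctsk, the protease of bone-resorbing cells, by -0.35 (adjusted p = 0.212), with Ctsk at -0.52 and an adjusted p of 0.00882 under array weights.

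The endogenous cathepsin inhibitors on the array, Cst3 and Cstb, had 4 of 4 probe sets above 0 and 0 past the threshold, with a median of 0.18 for aged against young rats. Of 9 other hydrolases through 10 probe sets 0 passed, with a median of 0.11; Ppt1, the palmitoyl-protein thioesterase of neuronal ceroid lipofuscinosis, was nearest at 0.22 (limma adjusted p = 0.225), followed by the fucosidase Fuca1 at 0.16 (adjusted p = 0.494) and Ggh, a glutamyl hydrolase, at -0.13 (adjusted p = 0.517). Ppt1 passed with name style as a term, at 0.34 (limma adjusted p = 0.0417). Of 6 activator and trafficking genes through 11 probe sets 0 passed, with a median of 0.11. Among them Psap, the precursor of the saposins that assist sphingolipid breakdown, changed by 0.35 on M19936_at, its probe set with the smallest p (limma adjusted p = 0.122). Its other probe sets had means of 13.66 in young and 14.11 in aged rats (S81353_s_at) and of 15.09 and 15.20 (rc_AA875233_s_at). The membrane protein Scarb2 changed by -0.18 (limma adjusted p = 0.396). Sort1, the sorting receptor sortilin, which binds progranulin, changed by 0.40 (limma adjusted p = 0.516). Psap M19936_at passed with array weights, at 0.39 (limma adjusted p = 0.0138), and without young replicate 4, at 0.42 (0.0283). Sort1 passed without the 6 arrays that correlated least with the others, at 0.68 (limma adjusted p = 0.0369).

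The vacuolar proton pump, which acidifies the lysosome, gave no call. Of 8 V-ATPase subunit genes through 11 probe sets 0 passed, 3 of 11 lay above 0, and the median log2 change was -0.09 for aged against young rats; for aged against mid-aged rats 6 of 11 lay above 0, with a median of 0.04. Atp6v0c, of the membrane sector, changed by -0.27 on D10874_at (limma adjusted p = 0.148). Its brighter probe set, D10874_g_at, had means of 15.13 in young and 15.08 in aged rats. Atp6v0a1, also of that sector, changed by -0.28 on M58758_at (limma adjusted p = 0.26), and M58758_g_at had means of 12.56 and 12.37. Atp6v1a, of the catalytic sector, changed by -0.22 on rc_AA893217_at (limma adjusted p = 0.284) and 0.14 on another probe set. Atp6v0c D10874_at passed with the replicate number as a block, at -0.30 (limma adjusted p = 0.0335). Atp6v1a rc_AA893217_at passed with array weights, at -0.29 (limma adjusted p = 0.0283).

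Of all tested probe sets 1.66% passed for aged against young rats, and among 7 other tetraspanins, the family of Cd63, 1 of 10 did. It was rc_AI231213_at of Cd82, with a log2 change of 0.47 (limma adjusted p = 0.0126), which was called present on 12 of 29 arrays and changed by -0.09 in the deposited series table. The call was also lost with name style as a term, at 0.44 (limma adjusted p = 0.0662), and within the longer style, at 0.56 (adjusted p = 0.0831). The second Cd82 probe set, present on all 29, changed by 0.35 (adjusted p = 0.0721). Cd53, a tetraspanin of leukocytes and microglia, changed by 0.53 (adjusted p = 0.076), and the widely expressed Cd9 by 0.36 (adjusted p = 0.131). Cd53 passed with the replicate number as a block, at 0.56 (limma adjusted p = 0.022), with array weights, at 0.46 (0.039), and without aged replicate 2, at 0.61 (0.0197). Cd9 passed with array weights, at 0.41 (limma adjusted p = 0.0253), and with only the 2 ages in the fit, at 0.36 (0.0471).

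**Figure D3:**
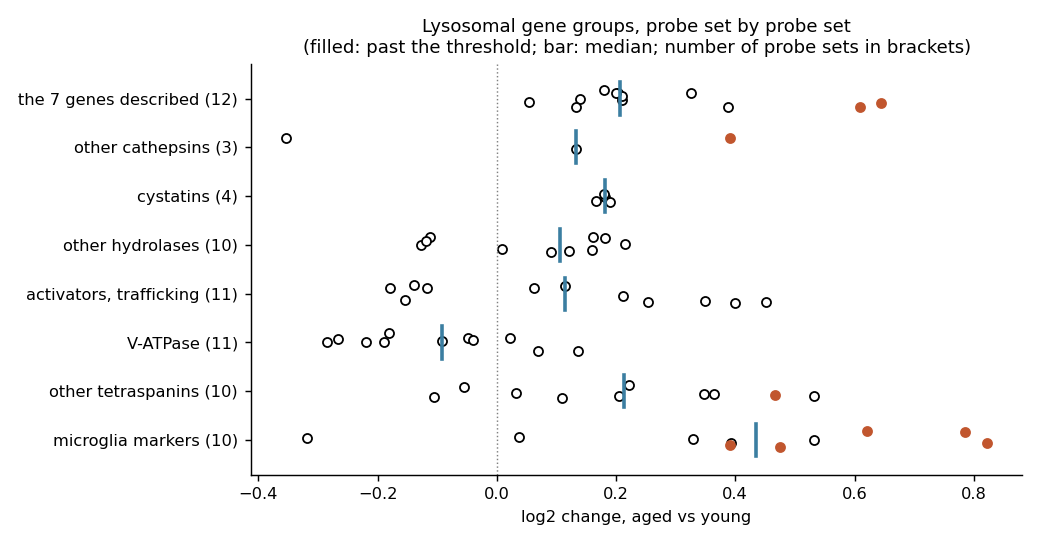
Log2 change for aged against young rats (horizontal axis) of each tested probe set of the 7 genes described and of the other gene groups (rows, with the number of probe sets), with the median of each group as a bar; filled points passed the threshold. The 12 probe sets of the 7 genes all lie above 0, the V-ATPase subunits centre on -0.09 and the microglia markers on 0.43.

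Markers of microglia, of oligodendrocytes and of red blood cells moved with age beside the 7 genes. Of all 3861 tested probe sets 1.66% passed for aged against young rats, and 548 stood at an unadjusted p under 0.05 (limma). Of 13 microglia marker genes on the array, 8 were tested, and 4 (Aif1, C1qb, Ctss and Fcgr2b) rose in aged against young rats. The median was 0.43 over 10 probe sets, of which 9 lay above 0. Cd14 went the other way, at -0.32, and did not pass. Csf1r, C1qc and Ptprc were called present on 0 arrays. The summed signal of the 13 genes ran from 27068 to 32394 in young, 26732 to 36400 in mid-aged and 34225 to 42154 in aged rats. The aged sums thus lay above the young ones. Signals were summed before log2, so Ctss weighs most, with mean log2 signals of 14.20 in young and 14.59 in aged rats. The brighter probe set of C1qb had 11.17 and 11.79. The separation of the sums therefore largely repeats that of Ctss. Among the microglia markers C1qb changed by 0.62 on its brighter probe set (limma adjusted p = 9.99e-05). Aif1 changed by 0.48 on its brighter one (limma adjusted p = 0.0312). Ctss counts here and among the cathepsins, and Cd53 here and among the tetraspanins. Of 11 oligodendrocyte and myelin genes, 10 were tested and Mag and Pmp22 rose, with a median of 0.29 over 17 probe sets, 15 of them above 0. Pmp22 rose on S55427_s_at, while its other probe set, rc_AA924909_at, changed by -0.17 and did not pass. The summed signal of the 11 oligodendrocyte and myelin genes ran from 74909 to 90178 in young, 76754 to 100610 in mid-aged and 84239 to 123987 in aged rats. Mag, a myelin-associated glycoprotein, changed by 0.61 on X06554cds_s_at (limma adjusted p = 0.000237), and Mbp, myelin basic protein, by 0.17 (adjusted p = 0.559). Of 16 astrocyte marker genes 0 passed through 26 probe sets (limma), with 5 at an unadjusted p under 0.05 and a median of 0.18. The haemoglobin genes Hbb and Hbb-b1, of red blood cells, rose, with a median of 1.11. Of the neuronal markers 0 of 20 tested genes passed through 39 probe sets, with 4 at an unadjusted p under 0.05 and a median of -0.03; Snap25, a synaptic protein, changed by -0.09 on its brightest probe set (adjusted p = 0.843). The part of these markers in the age differences of the 7 genes was not tested.

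Differences between rats of one age do not use the contrast on which the genes were chosen, and they were tested. With the mean of each age taken off, 21 pairs of the 7 genes were correlated over 29 arrays, each gene by its brightest tested probe set. By Pearson's r 0 of 21 pairs passed after adjustment (permutation within ages, two-sided), 4 stood at an unadjusted p under 0.05, and 19 of 21 were above 0. The median r was 0.11, where that over all pairs of tested probe sets was 0.00 with 95% of them between -0.54 and 0.57. The highest was Lamp1 with Ctsl, at r = 0.51 (rho 0.57; permutation adjusted p = 0.138 for r and 0.0437 for rho), with 0.51 without the 2 farthest arrays, 0.39 within the longer and 0.30 within the shorter name style. Ctsb with Ctsd followed, at r = 0.48 (rho 0.41; permutation adjusted p = 0.138 and 0.294), with 0.33 without the 2 farthest arrays, 0.48 within the longer and 0.27 within the shorter style. For Ctsd, Ctsl and Grn, the 2 probe sets of each gene gave r of 0.15, -0.23 and 0.08 (permutation adjusted p = 0.679 for each).

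Between rats of one age, the Cd63 signal moved with those of Ctss and C1qb, both made by microglia, and by rank with that of the myelin gene Mbp. Among 49 relations of the 7 genes with the markers Ctss, Aif1, C1qb, Mag, Mbp and Snap25 and with the share called present, a family chosen after seeing the data, 3 passed by Pearson's r, of which D90211_s_at with the share called present was described above. Cd63 with Ctss gave r = 0.69 (rho 0.62; permutation adjusted p = 0.0066 for r and 0.0131 for rho), 0.49 without the 2 farthest arrays, 0.76 within the longer and 0.70 within the shorter name style. Under quantile normalization it was 0.35 and no longer passed. Cd63 with C1qb, a chain of the complement component that microglia secrete, gave r = 0.65 (rho 0.66; permutation adjusted p = 0.0078 for r and 0.013 for rho), 0.67 without the 2 farthest arrays, 0.71 within the longer and 0.88 within the shorter style. Cd63 with Mbp gave r = 0.53 and rho 0.56 (permutation adjusted p = 0.0697 for r and 0.0374 for rho), 0.55 without the 2 farthest arrays, 0.56 within the longer and -0.11 within the shorter style. Aif1, another microglial gene, gave -0.30 with Cd63 and did not pass (permutation adjusted p = 0.459). Arrays of one age with more Cd63 signal thus had more Ctss and C1qb signal, and no relation was detectable for Aif1. The 6 arrays that correlated least with the others all lay above their age means for Cd63 (0.19 to 0.49) and Ctss (0.03 to 0.24). For C1qb mid-aged replicate 8 lay below its mean (-0.14). Over alternatives that included leaving these 6 out, r with Cd63 ran from 0.35 to 0.76 for Ctss and 0.45 to 0.72 for C1qb. Within ages Cd63 was nearer to RT1-M3-1 (0.79), Rps6 (0.78) and Nme1 (0.78). Whether its relations are particular to microglial genes was not tested.

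**Figure D4:**
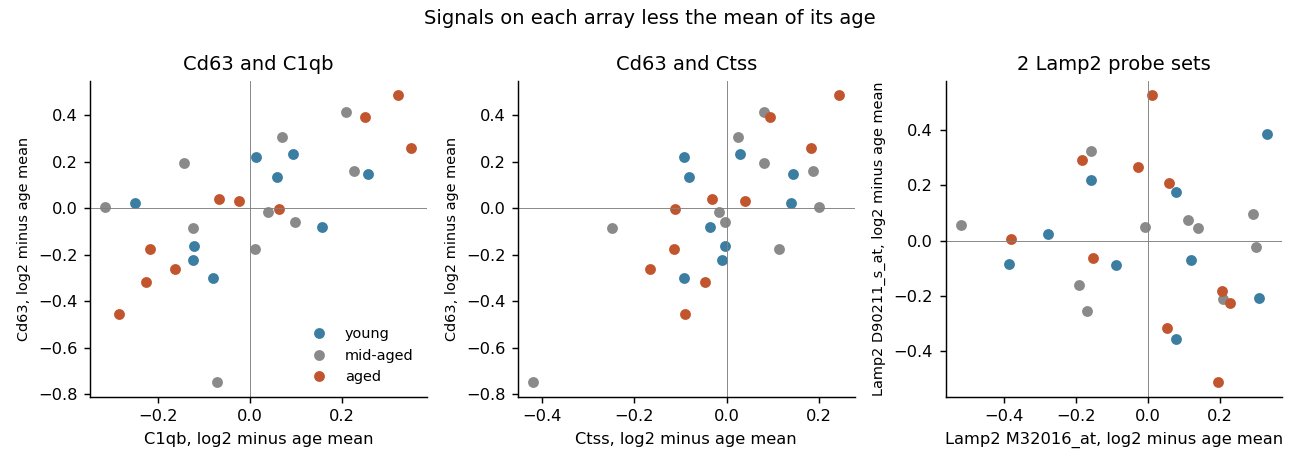
Log2 signal of Cd63 against C1qb and against Ctss, and of Lamp2 D90211_s_at against Lamp2 M32016_at, each less the mean of its age, with 1 point per array coloured by age. The Cd63 panels slope upward (r = 0.65 and 0.69) and the panel of the 2 Lamp2 probe sets does not (r = -0.14); 1 mid-aged array lies lowest for both Cd63 and Ctss.

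The probe sets most like each of the 7 genes over all 29 arrays carry the age differences with them and are given as a description. For Lamp2 D90211_s_at they were C1qb (r = 0.80) and Qdpr, a reductase of tetrahydrobiopterin metabolism, on 2 probe sets (0.80 and 0.77). For Lamp2 M32016_at they were Dhx9, an RNA helicase (0.74), Ctss (0.72) and Cd82 (0.71). For Lamp2 rc_AA800787_at they were Snf8, a part of the ESCRT machinery of endosomes (0.77), Cmtm6 (0.69) and Stat2 (0.68). The 3 Lamp2 probe sets thus shared none of their nearest genes.

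Cd63 was most like Apod, a lipocalin (0.81), the cathepsin inhibitor Cstb (0.80) and the ribosomal protein gene Rps6 (0.79), and Lamp1 most like Atp5f1e, a subunit of mitochondrial ATP synthase (0.77), Cd82 (0.73) and Pmpcb, a mitochondrial processing peptidase (0.70). Ctsb was nearest to the myelin gene Mobp (0.75), to Atp6ap1, an accessory subunit of the V-ATPase (0.66), and to Gnai1 (0.66). Grn X62322_g_at was nearest to RT1-Da, an MHC class II gene (0.74), S100a1 (0.70) and Mag (0.70), and Ctsl rc_AI176595_s_at to the ribosomal protein genes Rpl27 (0.78) and Rpl35 (0.73) and to Ptgds, a prostaglandin synthase (0.73). Ctsd rc_AI235585_s_at was nearest to Cyp7b1, an oxysterol hydroxylase (0.70), Fxyd1 (0.70) and Anxa5 (0.69), and X54467_at to St3gal2, a sialyltransferase (0.64), Stard3, a cholesterol-binding protein of late endosomes (0.60), and RT1-Db1 (0.57).

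With the mean of each age taken off, the nearest genes mostly changed. For Lamp2 D90211_s_at they became Rpl26 (0.64), Btd, which recycles biotin (0.62), and Ccnd1 (0.59), and for M32016_at Hnrnpab (0.66), Mapt, which encodes tau (0.66), and Rab6a (0.65). Lamp1 kept the same 3 nearest genes, Atp5f1e (0.72), Cd82 (0.69) and Pmpcb (0.69), and Cd63 had RT1-M3-1 (0.79), Rps6 (0.78) and Nme1 (0.78). For Ctsb they were Azin1 (0.71), Eif4a2 (0.67) and Capza2 (0.67), and for Grn X62322_g_at RT1-Da (0.63), the tetraspanin Cd81 (0.62) and S100a1 (0.59).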

How the data were processed

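Per the file headers, the authors deposited for each array a signal and a detection call for each of 8799 probe sets; the software that scaled them was not named in those headers or the labels. The authors also deposited a series table of intensities (from -39359 to 70317, 18.5% to 23.8% of each column below 0, column medians from 314.9 to 467.8), made by steps the labels do not name; it served as an alternative. One column belonging to another sample's array (1 in all) was not used. Without the 59 control probe sets, each array was scaled to one mean trimmed by 2% at either end (factors 0.999 to 1.00), values were floored at 160.8, the median of values called absent, and log2 was taken. Gene names come from the platform annotation (7006 probe sets with 1 symbol, 308 with several, 1426 with none).

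One limma fit (version 3.58.1, R 4.3.3) over all arrays gave the contrasts between ages, with two-sided p-values adjusted by Benjamini-Hochberg over 3861 probe sets. Correlations used 100000 permutations within ages (Python 3.11.15, numpy 2.4.6, pandas 2.3.3, scipy 1.17.1); figures used matplotlib 3.10.9. On simulated data with 3861 probe sets, aged against young recovered 34% of changes of 1.25-fold, 77% of 1.5-fold and 98.2% of 2-fold. The simulated noise was normal and independent between probe sets and arrays, so these shares need not hold for the measured arrays. P-values cover only the spread between the samples, which may be technical, and the number of arrays limits the precision.

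The members and lists were chosen with earlier results of these data known. Named genes are all member probe sets, of each lysosomal list the called genes and up to 3 with the smallest p for aged against young, a few markers, and the 3 probe sets most like each member; Cd68 and Gfap, named among the markers, had no tested probe set with a single gene name. Alternatives covered scaling, the series table, filter, floor, pseudocount 32, variance model, replicate block, name style, samples in the fit and arrays left out.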

Additional observations from a re-analysis of the deposited data

Results flagged for a closer look

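Of 36 sets of 10 or fewer arrays (12 probe sets at 3 ages), 2 had an array far from the others of its age by Dixon's test; chance flags about 1 in 20 groups. The Cd63 signal of mid-aged replicate 10 was 11.75 on the log2 scale, with the nearest mid-aged array at 12.33, and the same array was lowest for Ctss. The Ctsd X54467_at signal of aged replicate 3 was 12.90, with the nearest aged array at 12.42; this array is 1 of the 6 that correlated least with the rest.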

How the results depend on the processing

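The count of the 12 probe sets past the threshold for aged against young rats was 2, and 1 in the deposited series table and among arrays of the longer name style; over the other alternatives it was 2 or 3, and 2 to 3 when each array was left out. For mid-aged against young rats it was 1, and 0 in the series table, in the longer style and with the share called present as a covariate, an alternative chosen after seeing the data; leaving out each array gave 1 to 1. For aged against mid-aged rats it was 0 under every alternative run. The replicate block gave 3, 1 and 0 in these pairs. Same-numbered arrays of different ages were not taken as paired. Their deviations correlated above 0.1 in 13 of 28 pairs, against 81 of 252 pairs of different number. The medians were 0.09 and 0.00, and r of same-numbered pairs ran from -0.205 to 0.58. Of 29 arrays, 3 correlated best with their own number. Of the other lysosomal probe sets, 1 passed for aged against young rats, against 6 with array weights, 2 with the replicate block, 2 with name style as a term, 0 in the longer style, 3 without the 6 arrays that correlated least with the others, and 1 to 2 when each array was left out (2 without young replicate 4, where Psap M19936_at passed). For mid-aged against young rats 0 passed, against 2 with array weights and 2 without those 6 arrays. Of the 21 pairs of genes 0 passed, against 1 in the series table, Lamp1 with Cd63 at r = 0.49. In the series table Scarb2 turned to 0.0188 and Cd82 rc_AI231213_at to -0.091. The cause of these shifts was not tested. Of 1668 log2 changes of the 7 genes under alternatives, 3 moved by at least the probe set's SD within ages, all in the series table. A reversal was counted only for values called in the main fit, and 0 reversed. Smaller shifts and lost calls were not counted. Apart from the fits that left out a single array, Cd63 ran from 0.17 to 0.36 for aged against young rats. Ctsb ran from 0.04 to 0.30 and Lamp1 from 0.05 to 0.22 in the same pair. Lamp2 rc_AA800787_at ran from -0.13 to 0.30 for mid-aged against young rats. Lamp2 M32016_at passed for aged against young rats under all settings run. Fitting the shorter name style gave no aged comparison, since it holds no aged array.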

Other observations

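Other marker groups read on the same arrays gave these counts for aged against young rats (limma, adjusted over all tested probe sets). Of all 3861 tested probe sets 1.66% passed, and 548 stood at an unadjusted p under 0.05. Of 7 tested genes of antigen presentation, 4 rose (B2m, the light chain of MHC class I, Cd74, the class II invariant chain, and the class II genes RT1-Da and RT1-Db1), with a median log2 change of 0.40. Of 9 inhibitory interneuron genes 0 passed, with 5 of 10 probe sets at an unadjusted p under 0.05 and a median of -0.13. Of 4 endothelial and pericyte genes 0 passed, with 2 of 5 probe sets at an unadjusted p under 0.05. Of 8 choroid plexus and meningeal genes Ptgds rose and Col1a1 fell, with a median of -0.29 over 12 probe sets.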
